A study of Mus musculus with 9 samples.

Results

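Colonies of mouse intestinal stem cells in a non-degradable polyethylene glycol (PEG) gel were compared with colonies in Matrigel, by sequencing of polyadenylated RNA on day 4. PEG is a synthetic polymer that cells do not attach to or cut by themselves. Matrigel is a basement membrane extract from a mouse tumour, rich in laminin and collagen IV. The comparison used every library labelled with either matrix, 3 libraries of non-degradable PEG and 3 of Matrigel, or 6 of the 9 libraries of the series. The other 3 libraries, from a PEG gel that cells can degrade, entered the same model and served to show where the non-degradable gel differed from it. Below, PEG alone stands for the non-degradable gel. All groups shared one medium, with the Wnt agonist R-spondin, the BMP inhibitor noggin, the growth factor EGF, the GSK3 inhibitor CHIR99021 and the histone deacetylase inhibitor valproic acid. The labels give neither the mouse strain, the age and origin of the cells, the stiffness and ligands of the gels, nor the way colonies were freed from them. Nor do they tell whether the libraries of 1 matrix are separate cultures or animals. The p-values therefore measure the spread between these samples, and that spread may be technical.

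Intestinal stem cells sit at the base of the crypts, divide daily and give rise to absorptive enterocytes and to secretory cells such as Paneth, goblet and enteroendocrine cells. They rest on a basement membrane, and in culture they usually need one or a substitute with adhesion sites. When cells enlarge a colony in a mesh that they cannot cut, the mesh confines them, whereas Matrigel is held together without covalent crosslinks and gives way. Immediate early genes, many of them transcription factors, are those that growth factors, adhesion, stretch and stress induce first, before new protein is made.

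The libraries held 38.1 to 47.2 M reads assigned to genes, and 14870 genes had enough reads to be tested. Epithelial markers were abundant in every library, as the label calls for. Epcam, an epithelial adhesion molecule, was at 1331, 1255 and 1247 CPM with Matrigel and 1184, 1114 and 1211 CPM with PEG. The summed level of 12 intestinal epithelial markers was 7420 to 7830 CPM (reads per M of reads) with Matrigel and 8240 to 9410 CPM with PEG, and that of 10 crypt stem cell markers 5340 to 5520 CPM and 4230 to 4330 CPM. Much of the drop in the latter sum lay in Smoc2, described below. Of the 10, 4 were lower and 1 higher by the test given below, with a median log2 fold change of -0.14. Only 2 of the lower calls held with each library left out. At most 3 reads in each of the 6 libraries were found for 8 of 12 blood cell markers, such as Ptprc. The same held for 5 of 10 endothelial markers, such as Cdh5, and for 5 of 8 of smooth muscle, such as Acta2. The summed endothelial markers were at 19.2 to 20.3 CPM with Matrigel and 21 to 23.7 CPM with PEG. Those of glia and neurons, with 4 of 10 at that floor, were at 12 to 14.3 CPM and 8.64 to 13 CPM. The summed mesenchymal markers were at 161 to 327 CPM with Matrigel and 143 to 202 CPM with PEG, and Col1a2, Col3a1, Dcn and Lum had at most 3 reads in each library; the part of such cells in the results was not tested. In RNA from whole colonies, fewer cells of a type and less RNA per cell cannot be told apart.

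Of the 14870 genes, 2504 (16.8%) changed in non-degradable PEG, with 1444 (9.71%) higher and 1060 (7.13%) lower, by edgeR's quasi-likelihood test at a Benjamini-Hochberg adjusted p under 0.05 over all genes. All adjusted p-values below come from this test unless another is named, and the value with ± after a gene is its log2 fold change with the standard error. A call is said to be lost where leaving out the named library moved the adjusted p above the threshold. Rises were larger than falls. At least 2-fold changes were seen in 552 genes upward and 216 downward, and at least 8-fold changes in 58 and 28. The median log2 fold change was 0.808 among the higher genes, -0.394 among the lower genes and -0.002 among all genes. Changes under 1.5-fold made up 743 of the lower and 490 of the higher calls. The lower genes were also the more abundant, with a median of 52.4 CPM in Matrigel beside 11.4 CPM for the higher genes and 26.9 CPM for all. Genes called higher took 7.43 ± 0.261% of the reads in Matrigel and 12 ± 1.37% of those with PEG (SD, n = 3 each). Genes called lower took 11.7 ± 0.397% and 9.01 ± 0.538%. The direction of both differences follows from the choice of these genes by their calls, so only their size is described.

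**Figure D1:**
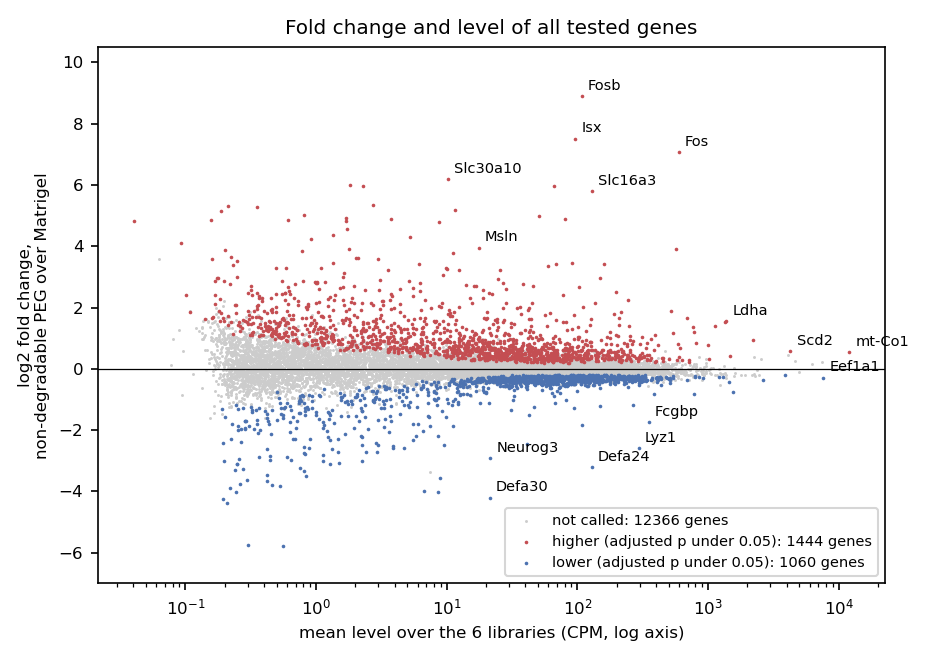
Log2 fold change of non-degradable PEG over Matrigel (vertical axis) against the mean level over the 6 libraries in CPM (horizontal log axis), 1 point per tested gene, coloured by call. The 1444 higher genes spread further from 0 than the 1060 lower ones, which crowd just under the line at high levels.

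The number of calls rested in part on single libraries. It was 1189 without PEG replicate 3, 1656 without replicate 1 of that gel, 1452 without Matrigel replicate 1 and 1636 without Matrigel replicate 2, and 1075 of the 2504 genes (726 higher, 349 lower) passed with each of the 6 libraries left out in turn. With the replicate number as a block, 3877 genes passed, among them all 2504. By class, 1308 of 13007 tested protein-coding genes rose and 1028 fell. Of 306 lincRNAs 37 rose and 4 fell, of 299 antisense RNAs 23 and 4, of 211 processed transcripts 19 and 6, and of 84 snoRNAs 1 and 2. The strand setting of the counting is not given, so an antisense RNA cannot be told from its partner gene.

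Of the 12 genes with the largest rise, 5 were immediate early transcription factors, Fosb, Fos, Egr2, Atf3 and Egr3. Fosb, a partner in the AP-1 factor, was at 0.333, 0.568 and 0.418 CPM with Matrigel and 132, 39.5 and 476 CPM with PEG (log2 fold change 8.91 ± 1.00 (SE), adjusted p = 0.000258). Its close relative Fos was at 4.4, 9.64 and 12.3 CPM with Matrigel and 912, 488 and 2139 CPM with PEG (log2 fold change 7.06 ± 0.60 (SE), adjusted p = 6.29e-05). In both genes the lowest PEG library was far above the highest Matrigel library, and replicate 3 of the PEG gel was the highest and replicate 2 the lowest. The same order of PEG libraries held for Egr2 (5.20 ± 0.59, adjusted p = 0.000261), Egr3 (4.29 ± 0.65, adjusted p = 0.00141), Arc (4.99 ± 0.59, adjusted p = 0.00035) and Atf3 (4.89 ± 0.86, adjusted p = 0.00334). Egr2 and Egr3 are zinc finger factors of the early growth response family, Atf3 is a stress-induced AP-1 relative, and Arc is best known as an activity-induced gene of neurons. Egr1, the most abundant of the Egr family here, was at 34.6, 103 and 74 CPM with Matrigel and 909, 681 and 1622 CPM with PEG (log2 fold change 3.92 ± 0.41 (SE), adjusted p = 0.000178).

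The promoter of Fos is shown because that gene held the largest gain in reads among these factors. The window spans 250 bases before to 50 after the start and is taken from RefSeq on GRCm38.p6 (chr12:85473640-85473939, plus strand). Capitals mark the TATAAA element 33 bases before the start.
Fos: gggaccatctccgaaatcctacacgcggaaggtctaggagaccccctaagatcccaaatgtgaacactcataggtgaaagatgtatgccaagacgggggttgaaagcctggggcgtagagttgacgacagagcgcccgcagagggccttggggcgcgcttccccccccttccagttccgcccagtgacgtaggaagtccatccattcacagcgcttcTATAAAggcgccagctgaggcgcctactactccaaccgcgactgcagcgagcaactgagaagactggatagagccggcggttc
A TATAAA on either strand was present in 9.01% of the 10793 tested genes with a promoter in the table, in 18.9% of the 122 such genes that rose at least 4-fold and in 24.5% of the 53 that fell at least 4-fold. The corresponding shares for the AP-1 motif TGANTCA were 6.24%, 11.5% and 7.55%. These are counts of letters in windows, not of bound sites, and genes had 1.28, 1.21 and 1.19 windows on average in the 3 groups.

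Not every leading gene was an early response gene. Isx, an intestine-specific homeobox factor known as a repressor of carotenoid uptake and cleavage, was at 2.05, 0.842 and 0.352 CPM with Matrigel and 185, 176 and 212 CPM with PEG (log2 fold change 7.51 ± 0.34 (SE), adjusted p = 1.35e-06). Its PEG libraries lay close together, unlike those of Fos. Slc30a10, a transporter that exports manganese from cells, was at 0.282, 0.19 and 0.352 CPM with Matrigel and 18.9, 16.6 and 25 CPM with PEG (log2 fold change 6.19 ± 0.33 (SE), adjusted p = 2.89e-06). Msln, the surface glycoprotein mesothelin, was at 2.43, 2.88 and 1.08 CPM with Matrigel and 28.6, 32.2 and 38.1 CPM with PEG (log2 fold change 3.95 ± 0.26 (SE), adjusted p = 1.26e-05). Chrna4, a nicotinic receptor subunit, was at 0.333, 0.126 and 0.286 CPM with Matrigel and 7.29, 3.73 and 10.9 CPM with PEG (log2 fold change 4.89 ± 0.50 (SE), adjusted p = 0.000178). The naming rule admitted only genes without overlap between the groups, so its absence in these 4 genes is not a result.

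**Figure D2:**
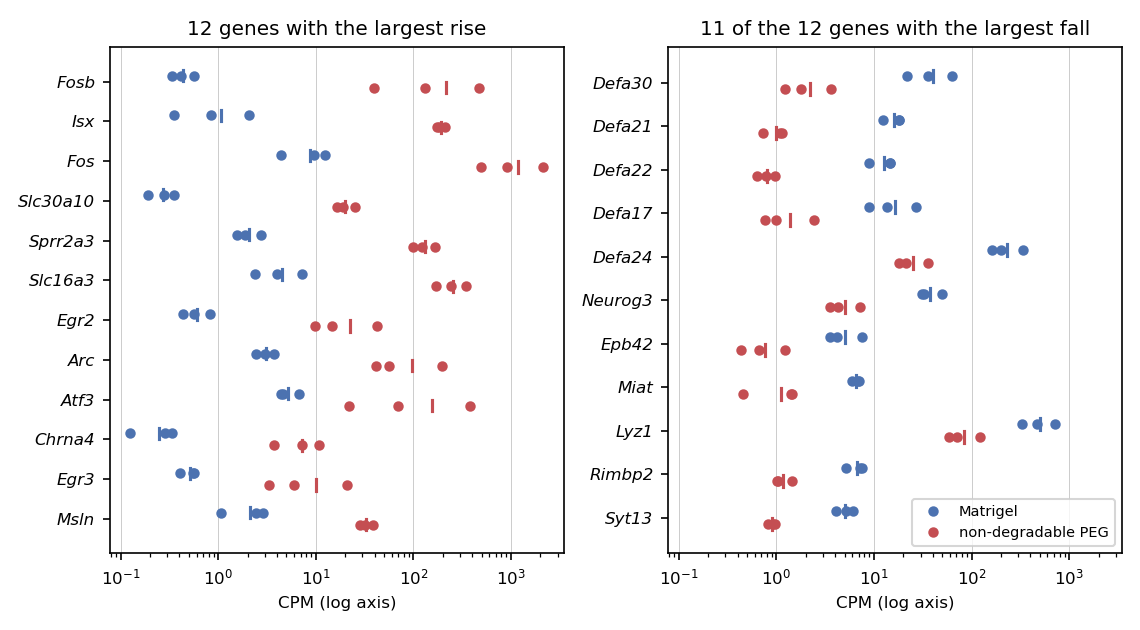
CPM on a log axis in each of the 3 Matrigel (blue) and 3 non-degradable PEG (red) libraries for the 12 genes with the largest rise and 11 of the 12 with the largest fall, chosen by rule; short lines are group means. The rule left out genes with overlapping groups. The PEG libraries of Fosb, Atf3 and Fos spread far more widely than those of Isx and Slc30a10.

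Of the 12 genes with the largest fall, 5 were alpha-defensins, antimicrobial peptides that Paneth cells secrete. Defa24 was at 333, 162 and 202 CPM with Matrigel and 35.7, 21.3 and 18 CPM with PEG (log2 fold change -3.22 ± 0.34 (SE), adjusted p = 0.000178). Defa30 was at 63.5, 21.9 and 35.8 CPM with Matrigel and 3.62, 1.8 and 1.22 CPM with PEG (log2 fold change -4.20 ± 0.46 (SE), adjusted p = 0.000222). Defa21 (-4.03 ± 0.23, adjusted p = 3.49e-06), Defa22 (-3.98 ± 0.27, adjusted p = 1.58e-05) and Defa17 (-3.57 ± 0.51, adjusted p = 0.000935) fell as well. Lyz1, Paneth cell lysozyme, was at 716, 327 and 466 CPM with Matrigel and 123, 58.4 and 71.1 CPM with PEG (log2 fold change -2.58 ± 0.34 (SE), adjusted p = 0.000628). Defensins and lysozymes have near-identical copies whose reads the counting could split, so values of single members are uncertain. Runs of neighbours were tested protein-coding genes in a row that were called the same way, so their shared direction follows from that choice. One run of lower genes held 10 defensin genes on chromosome 8 (GRCm38 chr8:21025545-21735471). Another held 4 genes on chromosome 14, Rnase4, Ang, Rnase1 and Ang4, which encode secreted ribonucleases (log2 fold changes from -1.87 to -0.40).

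Neurog3, the factor that commits progenitors to enteroendocrine fate, was at 49.9, 31.1 and 32.5 CPM with Matrigel and 7.21, 4.24 and 3.55 CPM with PEG (log2 fold change -2.92 ± 0.30 (SE), adjusted p = 0.000178). Syt13 (-2.49 ± 0.24, adjusted p = 0.000126), a synaptotagmin of endocrine precursors, Rimbp2 (-2.51 ± 0.30, adjusted p = 0.000377), a scaffold of sites of vesicle release, and Tubb3 (-2.59 ± 0.45, adjusted p = 0.00305), a neuronal tubulin, fell with it. Further leading falls were Epb42 (-2.73 ± 0.40, adjusted p = 0.00126), a membrane skeleton protein of red cells, and the long noncoding RNA Miat (-2.58 ± 0.45, adjusted p = 0.00319). All these genes passed with each of the 6 libraries left out. They were also without overlap between the matrices, but for the leading falls that was a condition of naming.

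Ranked by the difference in CPM instead of by fold, 6 of the 8 leading rises were in enzymes of metabolism. Scd2 and Scd1, which place a double bond in fatty acids, both rose. Scd2 went from 3487, 3363 and 3450.0 to 4940.0, 5008 and 5383 CPM (log2 fold change 0.57 ± 0.08 (SE), adjusted p = 0.000675). Scd1 went from 651, 597 and 641 to 1612, 1391 and 1929 CPM (log2 fold change 1.39 ± 0.14 (SE), adjusted p = 0.000176). The glycolytic genes Pkm, Ldha and Aldoa rose as well (Pkm 0.95 ± 0.13, adjusted p = 0.000847; Ldha 1.55 ± 0.15, adjusted p = 0.000124; Aldoa 1.51 ± 0.15, adjusted p = 0.000178). The mitochondrially encoded mt-Co1, a subunit of cytochrome oxidase, had the largest difference in CPM, 8775, 9064 and 11530.0 CPM with Matrigel and 13150.0, 13750.0 and 16010.0 CPM with PEG (log2 fold change 0.55 ± 0.14 (SE), adjusted p = 0.0201). Its call was lost without Matrigel replicate 1 or 2 or PEG replicate 3 (adjusted p from 0.0691 to 0.0834). The share of reads in all mitochondrially encoded genes was 3.35 ± 0.555% with Matrigel and 4.19 ± 0.297% with PEG, with overlapping groups (exact permutation p = 0.2, where 0.1 is the smallest possible).

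Among abundant genes that fell, Smoc2, a matricellular protein of crypt stem cells, was at 1944, 1901 and 1987 CPM with Matrigel and 1171, 1240.0 and 1060.0 CPM with PEG (log2 fold change -0.75 ± 0.07 (SE), adjusted p = 0.000142). Clca3b, a calcium-activated chloride channel regulator, fell from 1134, 858 and 997 to 637, 551 and 514 CPM (log2 fold change -0.81 ± 0.14 (SE), adjusted p = 0.00306). Fcgbp, a goblet cell mucus protein, went from 788, 418 and 413 to 182, 164 and 138 CPM (log2 fold change -1.74 ± 0.25 (SE), adjusted p = 0.000977). Serinc3, a membrane protein, fell by a smaller margin (log2 fold change -0.37 ± 0.07 (SE), adjusted p = 0.00574). The translation factor Eef1a1 (-0.28 ± 0.07, adjusted p = 0.0211), the tubulin Tubb5 (-0.43 ± 0.10, adjusted p = 0.0171) and the chaperone Hsp90ab1 (-0.20 ± 0.06, adjusted p = 0.0476) also passed. Eef1a1 was lost without Matrigel replicate 1 or PEG replicate 2 or 3 (adjusted p from 0.0674 to 0.0921), and Tubb5 without Matrigel replicate 1 or PEG replicate 3 (adjusted p from 0.068 to 0.0733). Hsp90ab1 was lost with any of the 6 libraries left out (adjusted p from 0.0765 to 0.158), with DESeq2's scaling of the libraries (0.0524), with a filter of 10 CPM (0.0834) and with no filter (0.0518).

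Gene families outside the usual markers of intestinal cell types were then read from 35 lists, each set beside the 9.71% of all tested genes that were higher and the 7.13% that were lower. The lists were chosen with earlier results of these data known, so their counts are descriptions. Shares of higher genes ran from 0% in ribosomal proteins, ribosome biogenesis, splicing and heat-shock lists to 75% in NADPH oxidases and nitric oxide synthases. Medians are log2 fold changes over all tested members, beside -0.002 over all genes.

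**Figure D3:**
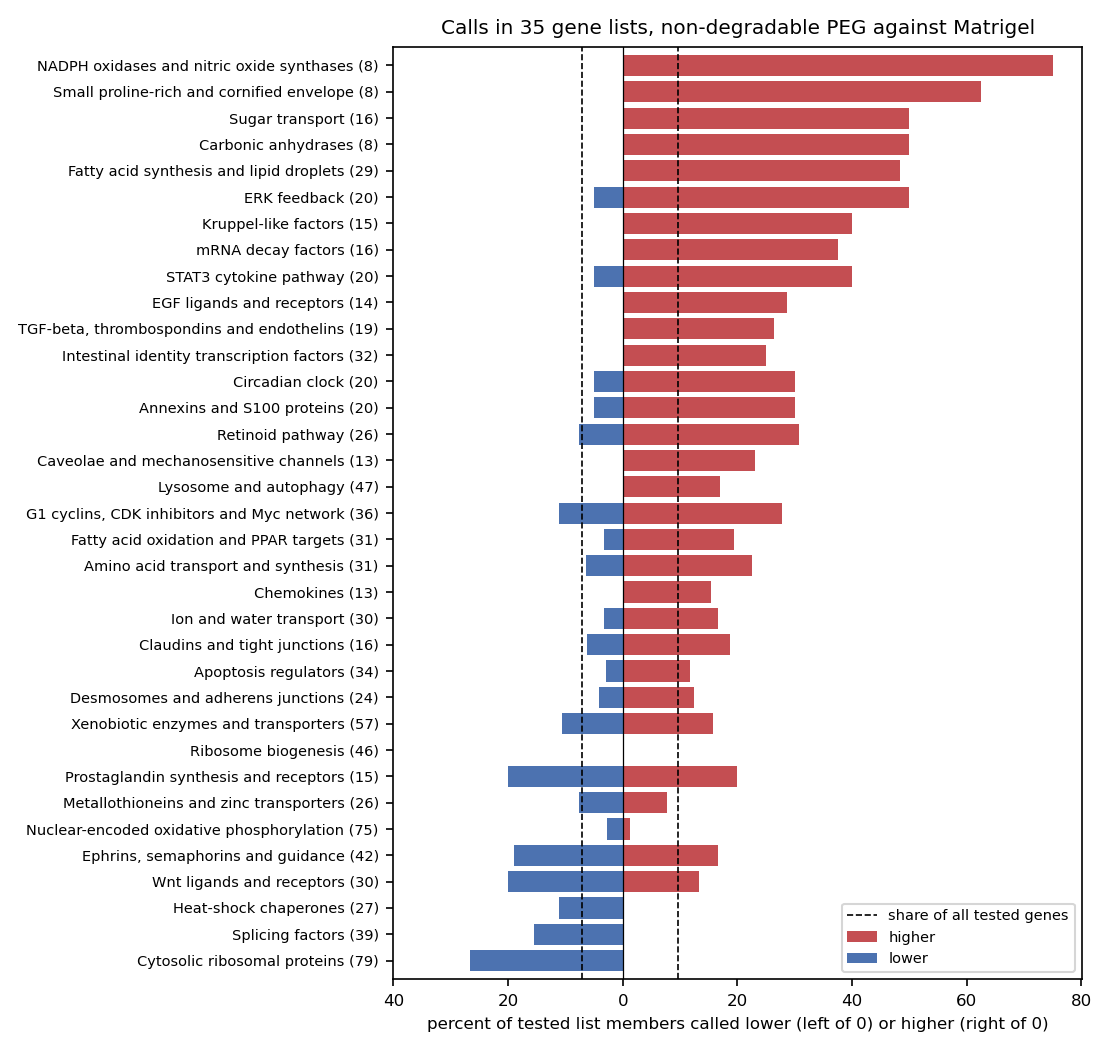
Percent of the tested members of 35 gene lists called lower (left, blue) and higher (right, red) in non-degradable PEG, with the number tested in brackets; dashed lines are the shares over all tested genes, 7.13% lower and 9.71% higher. Upward calls dominate most lists, and only ribosomal proteins, splicing factors and heat-shock chaperones have downward calls alone.

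Some ligands of the EGF receptor rose while the receptors did not pass. Of 14 tested genes, 4 rose and 0 fell (median 0.16). Hbegf, heparin-binding EGF, was at 7.83, 12.7 and 11 CPM with Matrigel and 87.8, 47.2 and 192 CPM with PEG (log2 fold change 3.37 ± 0.42 (SE), adjusted p = 0.000479). Areg (amphiregulin) was at 36.4, 68.7 and 42.6 CPM with Matrigel and 98.9, 100.5 and 153 CPM with PEG (log2 fold change 1.25 ± 0.23 (SE), adjusted p = 0.00382). Ereg (epiregulin) was at 6.76, 10.1 and 5.17 CPM with Matrigel and 14.9, 17.8 and 23.5 CPM with PEG (log2 fold change 1.35 ± 0.22 (SE), adjusted p = 0.00248). Btc, betacellulin, rose least (log2 fold change 0.65 ± 0.11 (SE), adjusted p = 0.00321). Ereg, Areg and Btc lie next to each other among the tested protein-coding genes of chromosome 5. With the following gene Parm1 they made up a run of 4 neighbours called higher, by the definition of runs given above (GRCm38 chr5:91074622-91626894). Egfr (0.20 ± 0.11, adjusted p = 0.227), Erbb2 (-0.07 ± 0.06, adjusted p = 0.521) and the receptor inhibitor Lrig1 (0.12 ± 0.08, adjusted p = 0.334) did not pass. All 4 ligands passed with each of the 6 libraries left out.

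In a list of ERK feedback genes, many of them inhibitors that the pathway itself induces, 10 of 20 tested genes were higher and 1 lower (median 0.63). The list also holds the transcription factors Etv4 and Etv5 and phosphatases of other kinases. Dusp6, a phosphatase specific for ERK, was at 6.45, 10.1 and 7.55 CPM with Matrigel and 43.1, 31.7 and 72.2 CPM with PEG (log2 fold change 2.61 ± 0.27 (SE), adjusted p = 0.000184). Dusp1 (2.39 ± 0.26, adjusted p = 0.000227), Dusp5 (2.48 ± 0.47, adjusted p = 0.00541), Dusp4 (0.97 ± 0.18, adjusted p = 0.00425), Spry1 (0.74 ± 0.14, adjusted p = 0.00514) and Phlda1 (0.85 ± 0.11, adjusted p = 0.000701) also rose. The exception was Dusp16, a phosphatase of JNK and p38, which fell (-0.36 ± 0.09, adjusted p = 0.0236) and was lost without Matrigel replicate 1 or 2 or PEG replicate 1 or 3 (adjusted p from 0.0606 to 0.0914). Without PEG replicate 3, 6 genes passed as higher.

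Kruppel-like factors, zinc finger regulators of epithelial growth and quiescence, rose in 6 of 15 tested members and fell in none (median 0.42). Klf2, known for its induction by flow, was at 1.18, 1.14 and 1.36 CPM with Matrigel and 6.92, 2.87 and 17.1 CPM with PEG (log2 fold change 2.87 ± 0.53 (SE), adjusted p = 0.0045). Klf10 (1.75 ± 0.25, adjusted p = 0.000901), Klf4 (1.64 ± 0.32, adjusted p = 0.00587) and Klf6 (1.52 ± 0.32, adjusted p = 0.00965) followed. Proteins that speed the decay of short-lived mRNAs rose in 6 of 16 tested members, with 0 lower (median 0.17). Zfp36, which binds AU-rich elements of cytokine mRNAs, was at 25.3, 28 and 27.7 CPM with Matrigel and 224, 209 and 438 CPM with PEG (log2 fold change 3.43 ± 0.26 (SE), adjusted p = 4.04e-05). Zfp36l1 (1.07 ± 0.12, adjusted p = 0.000222), Zfp36l2 (0.98 ± 0.11, adjusted p = 0.000261), Btg2 (1.20 ± 0.20, adjusted p = 0.0022) and Tob1 (0.95 ± 0.15, adjusted p = 0.0022) rose with it.

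In the pathway of cytokines that act through STAT3, 8 of 20 tested genes rose and 1 fell (median 0.27). Lif, leukaemia inhibitory factor, was at 2.43, 3.12 and 2.6 CPM with Matrigel and 7.77, 7.42 and 10.2 CPM with PEG (log2 fold change 1.64 ± 0.16 (SE), adjusted p = 0.00016). The feedback inhibitor Socs3 (1.13 ± 0.13, adjusted p = 0.000269), the kinase Pim3 (0.57 ± 0.08, adjusted p = 0.000881) and the NF-kB cofactor Bcl3 (1.25 ± 0.17, adjusted p = 0.000777) rose, and the receptor Il6ra fell (-1.11 ± 0.28, adjusted p = 0.0213). The count of higher members was 5 without PEG replicate 3, and Il6ra was lost without Matrigel replicate 1 or 2 or PEG replicate 1 or 3 (adjusted p from 0.0519 to 0.096). Of 13 tested chemokines 2 rose. Cxcl1, a neutrophil attractant, was at 0.845, 1.39 and 1.45 CPM with Matrigel and 4.23, 3.68 and 11.3 CPM with PEG (log2 fold change 2.37 ± 0.49 (SE), adjusted p = 0.00765). Cxcl16 (0.73 ± 0.18, adjusted p = 0.0204) was lost without Matrigel replicate 3 or PEG replicate 3 (adjusted p from 0.0526 to 0.0854). The count of chemokines was 4 without PEG replicate 2 and 6 with the replicate number as a block.

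Among TGF-beta, thrombospondin and endothelin genes 5 of 19 rose and 0 fell (median 0.18). Edn1, the vasoactive peptide endothelin-1, was at 11.9, 14.8 and 8.43 CPM with Matrigel and 35.3, 21.9 and 49.5 CPM with PEG (log2 fold change 1.61 ± 0.26 (SE), adjusted p = 0.00231), and Edn2 rose from a lower level (log2 fold change 2.83 ± 0.56 (SE), adjusted p = 0.00623). Skil (0.46 ± 0.14, adjusted p = 0.0394) and Tgfbr2 (0.31 ± 0.09, adjusted p = 0.0432) were among the 5 as well, and the count was 3 without Matrigel replicate 1 and 3 without PEG replicate 3. Skil was lost in every such fit (adjusted p from 0.0582 to 0.15), and Tgfbr2 without Matrigel replicate 1 or 3 or PEG replicate 1 or 2 or 3 (adjusted p from 0.0639 to 0.168). Thbs1, thrombospondin-1, was at 92.4, 123 and 96 CPM with Matrigel and 134, 80.5 and 267 CPM with PEG and did not pass (adjusted p = 0.205); its call came without PEG replicate 2 (adjusted p = 0.0265).

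Prostaglandin genes moved both ways, with 3 of 15 higher and 3 lower (median 0.01). The prostaglandin E2 receptor Ptger4 was at 21.1, 20.3 and 19.4 CPM with Matrigel and 33.5, 27.6 and 54.8 CPM with PEG (log2 fold change 0.93 ± 0.21 (SE), adjusted p = 0.0113). Ptgds, a prostaglandin D2 synthase, was at 1.95, 3.18 and 3.08 CPM with Matrigel and 0.766, 0.533 and 0.573 CPM with PEG (log2 fold change -2.13 ± 0.38 (SE), adjusted p = 0.00349). Ptges, a prostaglandin E2 synthase, passed as higher with at most 3 reads in each Matrigel library and 0.634, 0.33 and 1.12 CPM in non-degradable PEG, so no fold is given for it. The synthase Ptgis rose (1.23 ± 0.30, adjusted p = 0.0185), and the cyclooxygenase Ptgs1 (-1.33 ± 0.39, adjusted p = 0.0385) and the prostaglandin-degrading enzyme Hpgd (-0.25 ± 0.07, adjusted p = 0.0305) fell. These last 3 calls were lost without single libraries: Ptgis without Matrigel replicate 1 or 2 or PEG replicate 1 or 3 (adjusted p from 0.0606 to 0.0725), Ptgs1 without Matrigel replicate 2 or 3 or PEG replicate 1 or 2 or 3 (adjusted p from 0.053 to 0.129) and Hpgd without Matrigel replicate 1 or 2 or 3 or PEG replicate 1 or 3 (adjusted p from 0.066 to 0.11).

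Of 16 tested sugar and lactate transporters 8 rose and 0 fell (median 0.40; 5 higher without PEG replicate 3). Slc16a3, the lactate exporter MCT4, was at 2.41, 3.98 and 7.2 CPM with Matrigel and 242, 170.5 and 349 CPM with PEG (log2 fold change 5.79 ± 0.45 (SE), adjusted p = 4.51e-05). The glucose transporter Slc2a1 was at 68.9, 71.7 and 67.5 CPM with Matrigel and 161, 129.8 and 198 CPM with PEG (log2 fold change 1.23 ± 0.14 (SE), adjusted p = 0.000291). The transporters of glucose 6-phosphate Slc37a4 (0.57 ± 0.09, adjusted p = 0.00165) and Slc37a1 (0.46 ± 0.09, adjusted p = 0.00733) also rose. Gpi1, a glycolytic isomerase, went from 447, 407 and 436 to 1060.0, 888 and 1395 CPM (log2 fold change 1.37 ± 0.17 (SE), adjusted p = 0.000419). Txnip, a glucose-responsive brake on glucose uptake, went from 255, 394 and 349.8 to 853, 1015 and 1255 CPM (log2 fold change 1.65 ± 0.17 (SE), adjusted p = 0.000178). In every one of these genes the groups did not overlap, but they were named for their calls or after their values were seen, so this adds no support.

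Of 8 tested carbonic anhydrases, which interconvert carbon dioxide and bicarbonate, 4 rose (median 0.91). Car9, a membrane enzyme known as a hypoxia target, was at 55.8, 44.2 and 51.3 CPM with Matrigel and 232, 173 and 269 CPM with PEG (log2 fold change 2.16 ± 0.18 (SE), adjusted p = 6.29e-05). Car12 (1.07 ± 0.10, adjusted p = 0.000142), Car8 (1.29 ± 0.22, adjusted p = 0.003) and Car2 (0.86 ± 0.20, adjusted p = 0.0136) followed, and Car2 was lost without Matrigel replicate 1 (adjusted p = 0.0567). Among 30 ion and water transporters 5 rose and 1 fell (median 0.13). The sodium-proton exchangers Slc9a3 (1.57 ± 0.20, adjusted p = 0.000574) and Slc9a2 (0.72 ± 0.12, adjusted p = 0.00316) rose. The chloride channel Cftr fell, at 296, 288 and 289.8 CPM with Matrigel and 202, 206 and 177 CPM with PEG (log2 fold change -0.58 ± 0.12 (SE), adjusted p = 0.00986). The higher count was 3 without PEG replicate 1 and 8 with the replicate block. The mitophagy receptor Bnip3, another hypoxia target, was at 9.73, 11.8 and 13.5 CPM with Matrigel and 117, 89.4 and 169 CPM with PEG (log2 fold change 3.42 ± 0.32 (SE), adjusted p = 0.000113). Ankrd37, a small ankyrin protein, was at 1.25, 1.26 and 2 CPM with Matrigel and 19.9, 24 and 19.1 CPM with PEG (log2 fold change 3.79 ± 0.21 (SE), adjusted p = 3.49e-06).

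Promoters of 3 of these genes are printed because they rose together and each holds ACGTG, the core that hypoxia-inducible factors bind. Windows are from RefSeq on GRCm38.p6: Slc16a3 (chr11:120948817-120949116, plus strand), Ankrd37 (chr8:45999801-46000100, minus strand) and Car9 (chr4:43506776-43507075, plus strand). Capitals mark the core, which lies 27 and 14 bases before the start in Slc16a3, 241 and 6 bases before it in Ankrd37 and, on the other strand and so printed as CACGT, 18 bases before it in Car9.
Slc16a3: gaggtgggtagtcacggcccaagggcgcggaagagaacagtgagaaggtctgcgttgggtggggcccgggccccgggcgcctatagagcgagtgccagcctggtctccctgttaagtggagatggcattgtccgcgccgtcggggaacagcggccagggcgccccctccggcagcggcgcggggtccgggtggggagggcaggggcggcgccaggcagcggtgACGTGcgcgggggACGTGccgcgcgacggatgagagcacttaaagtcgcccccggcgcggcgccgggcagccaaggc
Ankrd37: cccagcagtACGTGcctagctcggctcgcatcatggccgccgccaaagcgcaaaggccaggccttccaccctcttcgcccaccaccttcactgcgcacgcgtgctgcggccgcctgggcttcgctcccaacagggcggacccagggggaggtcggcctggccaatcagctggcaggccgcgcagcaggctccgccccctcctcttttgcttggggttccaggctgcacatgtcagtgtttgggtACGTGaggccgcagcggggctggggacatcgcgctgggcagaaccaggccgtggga
Car9: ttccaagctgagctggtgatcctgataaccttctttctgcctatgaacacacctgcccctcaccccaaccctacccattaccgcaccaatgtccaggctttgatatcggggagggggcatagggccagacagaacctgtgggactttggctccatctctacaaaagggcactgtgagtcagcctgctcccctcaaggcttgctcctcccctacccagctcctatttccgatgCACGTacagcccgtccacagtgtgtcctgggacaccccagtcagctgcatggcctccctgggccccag
The core is common. On either strand it was present in 29.1% of all tested genes with a promoter, in 29.5% of those that rose at least 4-fold and in 22.6% of those that fell at least 4-fold. The shares were alike, and the 3 genes were chosen after their values were seen.

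Of 29 tested genes of fatty acid synthesis and lipid storage 14 were higher and 0 lower (median 0.32). Besides Scd1 and Scd2, Acacb, the acetyl-CoA carboxylase that limits fatty acid oxidation, was at 3.97, 3.58 and 5.5 CPM with Matrigel and 14.8, 12.9 and 22.2 CPM with PEG (log2 fold change 1.93 ± 0.25 (SE), adjusted p = 0.000604). Me1, a source of NADPH for lipid synthesis, was at 53.7, 61.3 and 45.8 CPM with Matrigel and 75.7, 82.4 and 87 CPM with PEG (log2 fold change 0.61 ± 0.10 (SE), adjusted p = 0.00203). Cidec, a lipid droplet protein, was at 1.31, 1.37 and 1.28 CPM with Matrigel and 3.12, 2.11 and 4.2 CPM with PEG (log2 fold change 1.25 ± 0.24 (SE), adjusted p = 0.0053). Acss2, which makes acetyl-CoA from acetate, gained 0.62 ± 0.13, adjusted p = 0.0107. The count of 14 was 7 without Matrigel replicate 1, 7 without replicate 2 and 9 without replicate 3 of that matrix. It was 8 without PEG replicate 1 and 6 without replicate 3.

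Genes of fatty acid oxidation and targets of PPAR receptors rose in 6 of 31 cases and fell in 1 (median 0.18). Pparg itself, a lipid-sensing nuclear receptor, was at 13.7, 12 and 11.4 CPM with Matrigel and 23.9, 19.7 and 25.3 CPM with PEG (log2 fold change 0.89 ± 0.13 (SE), adjusted p = 0.000881). Angptl4, a secreted lipase inhibitor, rose (0.79 ± 0.16, adjusted p = 0.00768), as did the peroxisomal enzyme Ehhadh (0.49 ± 0.12, adjusted p = 0.0181). Fabp2, an intestinal fatty acid binding protein of enterocytes, fell (-0.60 ± 0.18, adjusted p = 0.0406). Ehhadh was lost without Matrigel replicate 1 or 2 or PEG replicate 3 (adjusted p from 0.0547 to 0.0801) and Fabp2 without Matrigel replicate 1 or PEG replicate 1 or 2 or 3 (adjusted p from 0.052 to 0.129). The count of 6 was 3 without Matrigel replicate 2, where 3 were lower, and 3 without PEG replicate 3.

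In the retinoid pathway, which makes retinoic acid from vitamin A, 8 of 26 tested genes rose and 2 fell (median 0.30). Isx leads this list. The retinoic acid receptor Rarb was at 1.66, 1.73 and 1.23 CPM with Matrigel and 6.82, 5.67 and 5.48 CPM with PEG (log2 fold change 1.96 ± 0.18 (SE), adjusted p = 0.000124). Dhrs3, a retinal reductase, was at 9.09, 8.8 and 11.2 CPM with Matrigel and 29.5, 25.4 and 37.2 CPM with PEG (log2 fold change 1.66 ± 0.14 (SE), adjusted p = 7.70e-05). Adh1, an alcohol dehydrogenase that oxidises retinol among other alcohols, was at 7.96, 2.17 and 2.97 CPM with Matrigel and 32.1, 19.1 and 33 CPM with PEG (log2 fold change 2.70 ± 0.40 (SE), adjusted p = 0.00126). Bco1, the enzyme that cleaves beta-carotene and a known target of repression by Isx, rose as well (0.84 ± 0.16, adjusted p = 0.00541). The receptor Rxra fell (-0.47 ± 0.09, adjusted p = 0.00408), and so did Aldh1a3 (-1.17 ± 0.36, adjusted p = 0.0449), a retinal dehydrogenase, which was lost with each of the 6 libraries left out (adjusted p from 0.0748 to 0.151), leaving 1 lower gene.

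Of 26 tested metallothioneins and metal transporters 2 rose and 2 fell (median 0.06). Beside Slc30a10, the zinc, iron and manganese importer Slc39a14 was at 149, 175 and 198 CPM with Matrigel and 283, 246 and 379 CPM with PEG (log2 fold change 0.80 ± 0.17 (SE), adjusted p = 0.00992). The importers Slc39a8 (-0.42 ± 0.12, adjusted p = 0.033) and Slc39a6 (-0.21 ± 0.06, adjusted p = 0.0429) fell. Slc39a8 was lost without Matrigel replicate 1 or PEG replicate 1 or 2 or 3 (adjusted p from 0.062 to 0.124), and Slc39a6 with each of the 6 libraries left out (adjusted p from 0.0637 to 0.135). Without Matrigel replicate 1, 5 members were higher and 0 lower, and with the replicate block 5 were higher and 4 lower.

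Enzymes that make superoxide and nitric oxide gave the highest share of rises, 6 of 8 tested genes, with 0 lower (median 1.08). The list holds a whole oxidase: Nox1, the catalytic subunit of the colonic NADPH oxidase, was at 0.512, 0.4 and 0.617 CPM with Matrigel and 4.73, 1.98 and 3.37 CPM with PEG (log2 fold change 2.72 ± 0.35 (SE), adjusted p = 0.000574). Its activator Noxa1 was at 6.17, 4.59 and 3.94 CPM with Matrigel and 16.2, 16.6 and 15.7 CPM with PEG (log2 fold change 1.72 ± 0.16 (SE), adjusted p = 0.000124). Its organiser Noxo1 was at 24.1, 22.1 and 20.9 CPM with Matrigel and 44.6, 34.4 and 34.5 CPM with PEG (log2 fold change 0.76 ± 0.11 (SE), adjusted p = 0.00135). Cyba, the shared membrane subunit p22phox, rose too (0.71 ± 0.12, adjusted p = 0.00288). Nos2, the inducible nitric oxide synthase, was at 1.36, 1.2 and 2.14 CPM with Matrigel and 10.8, 6.1 and 15.6 CPM with PEG (log2 fold change 2.79 ± 0.32 (SE), adjusted p = 0.000296). The endothelial form Nos3 rose from 0.333, 0.379 and 0.462 to 0.819, 0.838 and 1.33 CPM (1.34 ± 0.28, adjusted p = 0.00812). All 6 passed with each of the 6 libraries left out.

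Small proline-rich proteins line stratified epithelia and are induced in damaged gut. In a list of these and other cornified envelope genes, 5 of 8 tested genes rose and 0 fell (median 2.45). The other 3 had negative log2 fold changes and did not pass. Sprr2a3 was at 1.56, 2.78 and 1.87 CPM with Matrigel and 122, 100.1 and 168 CPM with PEG (log2 fold change 5.96 ± 0.28 (SE), adjusted p = 1.35e-06). Sprr1a was at 1.23, 3.03 and 1.41 CPM with Matrigel and 19.2, 12.8 and 22.8 CPM with PEG (log2 fold change 3.25 ± 0.31 (SE), adjusted p = 0.000142). Crct1 rose (1.64 ± 0.30, adjusted p = 0.00452), and Sprr2a1 and Sprr2a2 passed from at most 3 reads in each Matrigel library to 0.872, 1.32 and 1.35 CPM and 1.37, 1.57 and 1.74 CPM. The 3 Sprr2a genes are near-identical copies, so their separate values are uncertain, and the count and median above treat them as 3 genes. Markers of gastric and squamous epithelium did not accompany them: their summed level was 0.903 to 3.54 CPM with Matrigel and 1.99 to 3.56 CPM with PEG, and Trp63 and Krt13 had at most 3 reads in each library.

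Annexins and S100 proteins, which bind calcium and membranes, rose in 6 of 20 tested genes and fell in 1 (median 0.38). Anxa2, a membrane and actin linker, was at 60, 75.4 and 69.3 CPM with Matrigel and 185, 132 and 231 CPM with PEG (log2 fold change 1.42 ± 0.18 (SE), adjusted p = 0.000466). Anxa10 (2.81 ± 0.34, adjusted p = 0.000416), S100a14 (1.36 ± 0.16, adjusted p = 0.000341), Anxa5 (0.81 ± 0.11, adjusted p = 0.000777), Anxa3 (1.5 ± 0.21, adjusted p = 0.000836) and Anxa9 (1.10 ± 0.21, adjusted p = 0.00507) rose, and Anxa11 fell (-0.29 ± 0.08, adjusted p = 0.0317). Anxa11 was lost without Matrigel replicate 1 or 3 or PEG replicate 1 or 2 or 3 (adjusted p from 0.0508 to 0.116), and 11 members rose with the replicate block and 10 by DESeq2. Among caveolar and mechanosensitive genes 3 of 13 rose, the caveolar coat genes Cav2 (1.36 ± 0.20, adjusted p = 0.000995), Cavin1 (0.55 ± 0.12, adjusted p = 0.00852) and Cavin3 (1.27 ± 0.35, adjusted p = 0.0302). Of these, Cavin3 was lost without Matrigel replicate 1 or 3 or PEG replicate 1 or 2 or 3 (adjusted p from 0.0584 to 0.0859). The stretch channel genes in that list did not pass.

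Junction genes were close to the background. Of 16 claudin and tight junction genes 3 rose and 1 fell, and of 24 desmosome and adherens junction genes 3 rose and 1 fell, with a median of 0.06 in both. Cldn2, a claudin that forms pores for cations in crypts, was at 266, 228 and 236 CPM with Matrigel and 458, 362 and 497 CPM with PEG (log2 fold change 0.85 ± 0.12 (SE), adjusted p = 0.000998). The desmosomal Pkp2 gained 0.39 ± 0.07, adjusted p = 0.00429. The other junction calls, Cldn4 (0.81 ± 0.24, adjusted p = 0.0417), Tjp3 (0.23 ± 0.07, adjusted p = 0.045), Cldn8 (-0.35 ± 0.09, adjusted p = 0.0224), Plec (0.45 ± 0.12, adjusted p = 0.0231), Ppl (0.32 ± 0.09, adjusted p = 0.0311) and Pkp1 (-0.38 ± 0.10, adjusted p = 0.0237), rested on single libraries. Cldn4 was lost without Matrigel replicate 1 or 3 or PEG replicate 1 or 3 (adjusted p from 0.0516 to 0.161), Tjp3 without Matrigel replicate 1 or 2 or 3 or PEG replicate 1 or 3 (adjusted p from 0.0722 to 0.162) and Cldn8 without Matrigel replicate 2 or 3 or PEG replicate 1 (adjusted p from 0.0606 to 0.085). Plec was lost without Matrigel replicate 1 or 2 or PEG replicate 1 or 3 (adjusted p from 0.0524 to 0.0988), Ppl without Matrigel replicate 1 or 2 or PEG replicate 1 or 3 (adjusted p from 0.0651 to 0.14) and Pkp1 without Matrigel replicate 1 or 3 or PEG replicate 2 or 3 (adjusted p from 0.0577 to 0.0902). With the replicate block, 5 claudin and tight junction genes were higher, as without PEG replicate 2. The number of higher genes was 1 in this list without Matrigel replicate 3 or PEG replicate 1 or 3, and 1 in the desmosome list without Matrigel replicate 1 or PEG replicate 1 or 3.

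The cells' own basement membrane genes were measured because Matrigel supplies these proteins. Of 7 tested matrix genes known from the tumour that Matrigel comes from, 4 were higher in non-degradable PEG and 1 lower. Col4a1 was at 5.15, 10.9 and 3.02 CPM with Matrigel and 24.2, 38.1 and 32.1 CPM with PEG (log2 fold change 2.30 ± 0.36 (SE), adjusted p = 0.00184). Its partner chain Col4a2 was at 5.17, 12.1 and 3.3 CPM with Matrigel and 27.5, 47.3 and 38.5 CPM with PEG (log2 fold change 2.45 ± 0.38 (SE), adjusted p = 0.00167). The laminin chain Lamb1 (1.09 ± 0.17, adjusted p = 0.00184) and nidogen Nid1 (0.70 ± 0.13, adjusted p = 0.00575) rose. The proteoglycan Hspg2 fell (-0.35 ± 0.09, adjusted p = 0.0187), a call lost without Matrigel replicate 2 or 3 or PEG replicate 3 (adjusted p from 0.0605 to 0.0785). Lama1 and Sparc had at most 3 reads in each library. Krt19, a keratin of simple epithelia, went from 463, 495 and 438 to 741, 671 and 830.0 CPM (log2 fold change 0.68 ± 0.10 (SE), adjusted p = 0.00137). Itgam, an integrin of myeloid cells, was at 1.64, 1.24 and 1.32 CPM with Matrigel and 3.83, 2.77 and 3.19 CPM with PEG (log2 fold change 1.22 ± 0.21 (SE), adjusted p = 0.00311). The summed blood cell markers were at 1.72 to 2.41 CPM with Matrigel and 3.33 to 4.36 CPM with PEG, with Ptprc at most at 3 reads, and their part in that result was not tested.

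Of 30 tested Wnt ligand and receptor genes 6 were lower and 4 higher (median -0.02). Wnt3, which Paneth cells supply to stem cells, was at 13.7, 9.14 and 9.95 CPM with Matrigel and 4.97, 3.15 and 2.93 CPM with PEG (log2 fold change -1.57 ± 0.25 (SE), adjusted p = 0.00172). Wnt6 was at 7.09, 14.6 and 10.1 CPM with Matrigel and 3.83, 4.22 and 3 CPM with PEG (log2 fold change -1.53 ± 0.24 (SE), adjusted p = 0.00187). The secreted inhibitor Wif1 fell too (-1.61 ± 0.33, adjusted p = 0.00822). Lower calls for the Wnt carrier Wls (-0.27 ± 0.06, adjusted p = 0.0162), Wnt10a (-1.12 ± 0.34, adjusted p = 0.0427) and the receptor Ryk (-0.19 ± 0.06, adjusted p = 0.0376) depended on single libraries. So did the higher calls for Wnt7b (2.32 ± 0.58, adjusted p = 0.0198), Fzd8 (0.62 ± 0.16, adjusted p = 0.0231), Porcn (0.46 ± 0.13, adjusted p = 0.0346) and Fzd9 (0.83 ± 0.24, adjusted p = 0.0352). The higher count was 0 without Matrigel replicate 1 or 3 and 1 without Matrigel replicate 2 or without PEG replicate 1 or 3. The lower count was 3 without PEG replicate 3 and 10 with the replicate block.

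Guidance molecules changed in both directions, with 7 of 42 higher and 8 lower (median 0.05). The ephrin Efna1 was at 10.8, 11.2 and 13.8 CPM with Matrigel and 28, 31.8 and 29.8 CPM with PEG (log2 fold change 1.32 ± 0.15 (SE), adjusted p = 0.000239). The semaphorins Sema3b (0.93 ± 0.11, adjusted p = 0.000418) and Sema4a (0.63 ± 0.09, adjusted p = 0.00121) rose. Nrp1, neuropilin-1, a receptor of class 3 semaphorins, was at 43.6, 39.9 and 42.9 CPM with Matrigel and 22.3, 23.5 and 22.8 CPM with PEG (log2 fold change -0.88 ± 0.10 (SE), adjusted p = 0.000261). Ntn4, a netrin of basement membranes, was at 58.6, 38 and 37 CPM with Matrigel and 19.3, 20 and 12.9 CPM with PEG (log2 fold change -1.35 ± 0.21 (SE), adjusted p = 0.00155). Slit1 fell from 1.15, 1.28 and 1.06 to 0.423, 0.533 and 0.481 CPM (log2 fold change -1.28 ± 0.23 (SE), adjusted p = 0.00404). Without PEG replicate 3 the counts were 4 and 4, and without Matrigel replicate 1 the lower count was 4.

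Among regulators of entry into the cell cycle, both brakes and drivers rose. Of 36 tested genes 10 were higher and 4 lower (median 0.06). The CDK inhibitor Cdkn2b was at 4.58, 6.04 and 4.16 CPM with Matrigel and 19, 14.7 and 25.7 CPM with PEG (log2 fold change 2.00 ± 0.22 (SE), adjusted p = 0.000249). Its chromosomal neighbour Cdkn2a, which encodes p16 and p19ARF, was at 3.17, 3.33 and 2.49 CPM with Matrigel and 8.61, 9.7 and 10.1 CPM with PEG (log2 fold change 1.66 ± 0.15 (SE), adjusted p = 0.000103), and Cdkn1a, which encodes p21, rose less (0.81 ± 0.16, adjusted p = 0.00589). Myc was at 119, 132 and 128 CPM with Matrigel and 259, 227 and 329 CPM with PEG (log2 fold change 1.10 ± 0.14 (SE), adjusted p = 0.000604) and the cyclin Ccnd2 gained 0.79 ± 0.11, adjusted p = 0.000747. Lower were Cdkn2c (-0.48 ± 0.10, adjusted p = 0.00874), Mxd4 (-0.38 ± 0.06, adjusted p = 0.00256), Cdk4 (-0.30 ± 0.08, adjusted p = 0.0309) and Mxd3 (-0.47 ± 0.14, adjusted p = 0.0453). The higher count was 6 without Matrigel replicate 1 or PEG replicate 3, the lower count was 2 without either of these or without PEG replicate 1 or 2, and 7 with the replicate block.

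Apoptosis regulators were near the background, with 4 of 34 higher and 1 lower (median 0.11). Beside Bnip3, the survival genes Birc3 (0.70 ± 0.09, adjusted p = 0.000717) and Bcl2a1d (1.57 ± 0.29, adjusted p = 0.0047) rose, the latter from a low level of 0.179, 0.253 and 0.22 CPM to 0.713, 0.686 and 0.573 CPM. The executioner caspase Casp6 fell (-0.32 ± 0.07, adjusted p = 0.0109) and was lost without PEG replicate 3 (adjusted p = 0.0516). With the replicate block 8 members were higher.

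Ribosomal proteins that passed were all lower. Of 79 tested genes 21 fell and 0 rose, the median was -0.21, and 78 had a negative log2 fold change. Rps15a was at 312, 341 and 309 CPM with Matrigel and 255, 272 and 237 CPM with PEG (log2 fold change -0.33 ± 0.07 (SE), adjusted p = 0.0121). Rps7 (-0.38 ± 0.09, adjusted p = 0.0144), Rps25 (-0.34 ± 0.08, adjusted p = 0.0144) and Rps12 (-0.41 ± 0.10, adjusted p = 0.017) were close to it in size. Each of these changes was small next to the early response genes, and reads of ribosomal proteins can be shared with processed pseudogenes. The calls rested on single libraries: 0 remained without PEG replicate 3, 2 without Matrigel replicate 2, 5 without Matrigel replicate 1, 6 without PEG replicate 2 and 12 without replicate 1. With the replicate block 32 were lower, and in a fit of the 6 libraries alone 40.

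Splicing factors were lower in 6 of 39 tested genes and higher in 0 (median -0.18, 35 negative). Srsf3, a serine and arginine rich splicing factor, was at 299, 284 and 291 CPM with Matrigel and 245, 239 and 219.7 CPM with PEG (log2 fold change -0.31 ± 0.06 (SE), adjusted p = 0.00797). The count was 1 without Matrigel replicate 2 or without PEG replicate 1 or 3, 3 without Matrigel replicate 1, and 17 with the replicate block. Nuclear-encoded subunits of oxidative phosphorylation were called in 3 of 75 cases, 1 higher and 2 lower, while 65 were negative (median -0.11). The 3 were Ndufv3 (0.48 ± 0.11, adjusted p = 0.0172), Ndufb11 (-0.27 ± 0.07, adjusted p = 0.0306) and Ndufa1 (-0.22 ± 0.07, adjusted p = 0.0412). Without PEG replicate 3, or Matrigel replicate 2, no call was left, and no lower call without Matrigel replicate 1 or 3 or PEG replicate 1. The replicate block gave 6 lower and DESeq2 7. Of 46 ribosome biogenesis genes 0 passed (median -0.07; 3 were lower with the replicate block and 2 by DESeq2).

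Of 27 tested heat-shock chaperones 0 rose and 3 fell (median -0.05). The 3 were Hsp90ab1, Dnaja1 (-0.24 ± 0.07, adjusted p = 0.03) and Hspe1 (-0.27 ± 0.08, adjusted p = 0.0387). No lower call was left without Matrigel replicate 1 or 2 or PEG replicate 3, and 1 was left without Matrigel replicate 3 or PEG replicate 1 or 2. Without Matrigel replicate 2, 1 member was higher. With the replicate block 4 members were higher and 6 lower, and DESeq2 gave 3 and 5.

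Clock genes were higher in 6 of 20 and lower in 1 (median 0.33). Bhlhe40, a repressor that is also induced by hypoxia and serum, was at 42.9, 49.3 and 39 CPM with Matrigel and 147, 202 and 177 CPM with PEG (log2 fold change 2.01 ± 0.12 (SE), adjusted p = 6.98e-06), with PEG libraries that did not follow the order seen for Fos. The clock repressors Ciart (1.32 ± 0.17, adjusted p = 0.000645) and Nr1d1 (0.50 ± 0.10, adjusted p = 0.00692) and the activator Npas2 (0.71 ± 0.13, adjusted p = 0.00347) rose. Nr1d2 fell (-0.37 ± 0.11, adjusted p = 0.0368), a call lost without Matrigel replicate 1 or 2 or PEG replicate 1 or 2 or 3 (adjusted p from 0.0507 to 0.138). The labels give no time of day for the harvests.

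Lysosome and autophagy genes rose in 8 of 47 cases (median 0.04), with Bnip3 in front and the mitophagy receptor Bnip3l (0.80 ± 0.14, adjusted p = 0.00358), the proton pump subunit Atp6v0a1 (0.52 ± 0.11, adjusted p = 0.00753) and the sialidase Neu1 (0.46 ± 0.09, adjusted p = 0.00578) behind it. The count was 5 without Matrigel replicate 1 or 3 and 4 without PEG replicate 3. In amino acid transport and synthesis 7 of 31 rose and 2 fell (median 0.10). The cystine carrier subunit Slc7a9 was at 3.89, 2.59 and 2.09 CPM with Matrigel and 7.61, 6.63 and 9.54 CPM with PEG (log2 fold change 1.48 ± 0.23 (SE), adjusted p = 0.00172). The glutamine carrier Slc38a1 gained 0.76 ± 0.13, adjusted p = 0.00333. Cth, which makes cysteine, fell (-0.50 ± 0.08, adjusted p = 0.00205), as did Shmt1 (-0.26 ± 0.07, adjusted p = 0.0267), which was lost with each of the 6 libraries left out (adjusted p from 0.0509 to 0.117). The count of 7 was 4 without Matrigel replicate 1 or 3 or PEG replicate 1, and 3 without PEG replicate 3.

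Transcription factors of intestinal identity rose in 8 of 32 cases and fell in 0 (median 0.04). After Isx came Elf3, an epithelial Ets factor, at 245, 263 and 241 CPM with Matrigel and 455, 557 and 596 CPM with PEG (log2 fold change 1.10 ± 0.14 (SE), adjusted p = 0.000451). Prdm1, the repressor Blimp1 of the fetal gut, rose (1.00 ± 0.19, adjusted p = 0.00455). So did Creb3l3 (1.55 ± 0.35, adjusted p = 0.0121), a membrane-bound factor of lipid handling that was lost without PEG replicate 3 (adjusted p = 0.0527). The count was 5 without Matrigel replicate 1, 4 without Matrigel replicate 3 and 3 without PEG replicate 3.

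**Figure D4:**
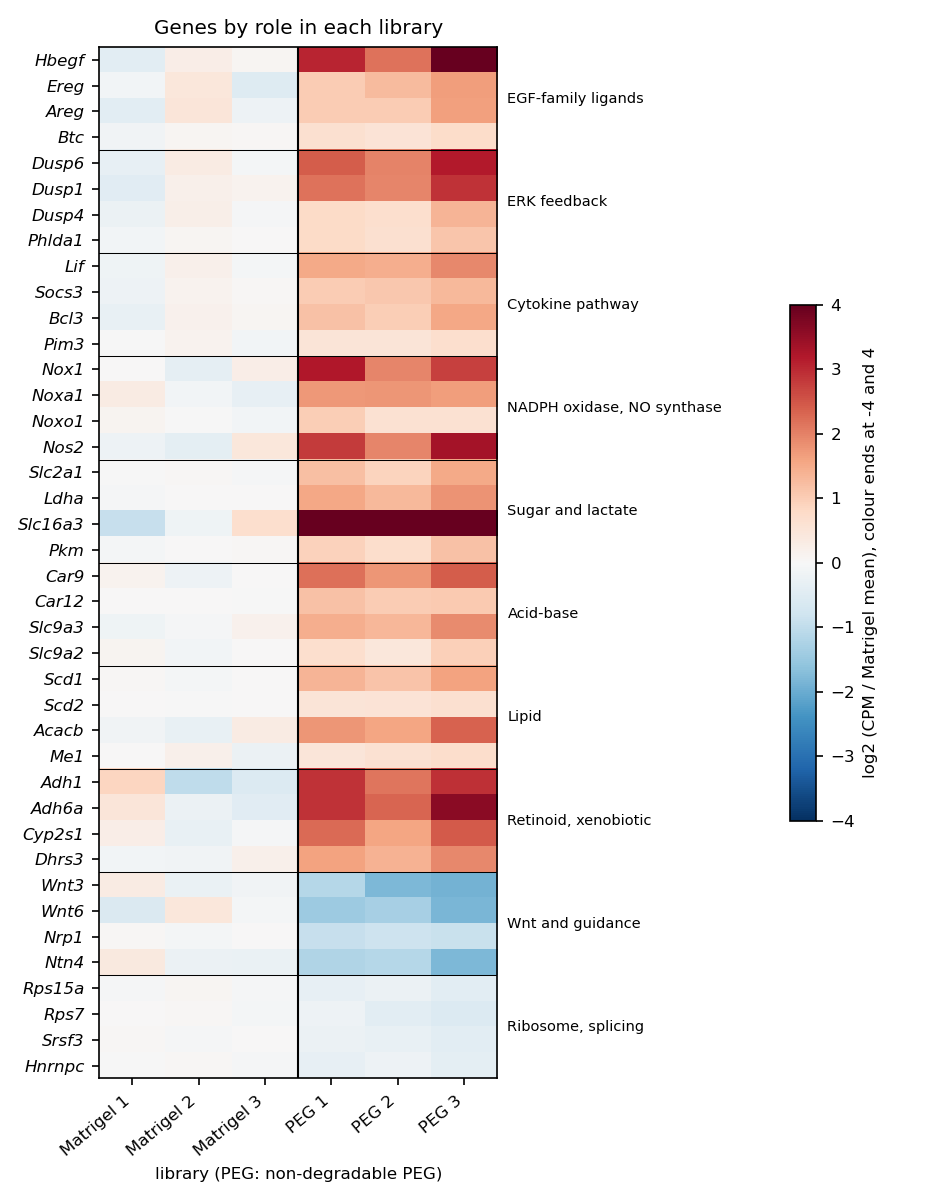
Log2 ratio of CPM to the Matrigel mean (colour) for 40 genes grouped by role, in the 3 Matrigel and 3 non-degradable PEG libraries (columns). Within PEG the third library is usually the darkest for ligands, feedback genes and sugar genes, while Noxa1 and Car12 are even across the 3 libraries and ribosomal and splicing genes are barely tinted.

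Against the degradable PEG gel, 190 of the 14870 genes (1.28%) differed, 121 higher (0.814%) and 69 lower (0.464%) in the non-degradable gel, by the same edgeR test. The comparisons share the non-degradable PEG libraries, so values are given side by side. The balance of the 121 and 69 turned without PEG replicate 3, with 51 higher and 92 lower, and without degradable PEG replicate 2, with 4 higher and 15 lower. The count was 19 without degradable PEG replicate 2 and 28 without PEG replicate 1, 124 without PEG replicate 2 and 117 without degradable PEG replicate 1, and 509 by DESeq2. Several leading genes of the comparison with Matrigel were not told apart between the gels. Fos was at 1250.0, 963 and 1608 CPM in degradable PEG (log2 difference -0.11 ± 0.45, adjusted p = 0.931) and Fosb at 406, 230.5 and 409 CPM (-0.69 ± 0.61, adjusted p = 0.63). Isx was at 129.7, 105 and 122 CPM (0.69 ± 0.23, adjusted p = 0.207) and Defa24 at 34.3, 21.2 and 18.3 CPM (0.02 ± 0.32, adjusted p = 0.981). In the main fit, 0 members differed between the gels in the lists of EGF ligands and receptors, Kruppel-like factors, carbonic anhydrases and sugar transport. The same held for the STAT3, small proline-rich, ribosomal protein, splicing and cell cycle entry lists. Some of the remaining lists held calls, such as 4 of 13 chemokines and 2 of 20 ERK feedback genes, all lower in the non-degradable gel. In both of these lists no call was left without degradable PEG replicate 2 or without PEG replicate 1. A p that misses the threshold does not show that the gels act alike.

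Of 57 tested enzymes and transporters of foreign compounds 18 were higher in non-degradable than in degradable PEG, where 0.814% of all genes were, and 0 were lower, with a median log2 difference of 0.54, whereas against Matrigel 9 were higher and 6 lower (median 0.09). Ces2a, a carboxylesterase, was at 267, 220.2 and 243 CPM with PEG, 93.2, 82.2 and 79.6 CPM with degradable PEG and 357, 177 and 169 CPM with Matrigel (1.52 ± 0.24, adjusted p = 0.0159). Ugt2b34, a glucuronosyltransferase, was at 461, 452 and 543 CPM with PEG, 277, 240.1 and 331 CPM with degradable PEG and 462, 411 and 424 CPM with Matrigel (0.78 ± 0.11, adjusted p = 0.0145). For these 2 genes Matrigel and non-degradable PEG overlapped and were not told apart by the test (adjusted p = 0.894 and 0.338). Cyp4f14, a fatty acid hydroxylase, was higher than in both other matrices, at 41.4, 31.3 and 48.4 CPM with PEG, 14.8, 13.4 and 16.8 CPM with degradable PEG and 24.4, 14.1 and 16.6 CPM with Matrigel (1.43 ± 0.20, adjusted p = 0.0133 between the gels and 1.14 ± 0.20, adjusted p = 0.00332 against Matrigel). Against Matrigel, Cyp2s1 (2.15 ± 0.27, adjusted p = 0.000455) and Cyp3a13 (0.66 ± 0.11, adjusted p = 0.00241) rose and the glutathione transferase Mgst1 fell (-0.56 ± 0.08, adjusted p = 0.00129).

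The count of 18 rested on single libraries: it was 0 without degradable PEG replicate 2, 1 without PEG replicate 1, 8 without degradable PEG replicate 1 or PEG replicate 3, 9 without degradable PEG replicate 3 and 11 without PEG replicate 2, with medians from 0.52 to 0.61 and 0 lower throughout. DESeq2 gave 30 and the replicate block 29. Ces2a was lost without degradable PEG replicate 2 or PEG replicate 1 (adjusted p from 0.0758 to 0.0966), Ugt2b34 without degradable PEG replicate 2 (adjusted p = 0.0596) and Cyp4f14 without degradable PEG replicate 2 or PEG replicate 1 (adjusted p from 0.0534 to 0.0805). Against Matrigel the counts were 5 higher without Matrigel replicate 2 or 3 or PEG replicate 1 or 3. The lower count there was 2 without Matrigel replicate 1, 3 without Matrigel replicate 3 or PEG replicate 3 and 1 without PEG replicate 1. With the block it was 15 higher and 10 lower. Many genes of these families have close copies in clusters, which the counting could split.

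Among genes that passed both tests, the largest excess over degradable PEG was in Adh6a, an alcohol dehydrogenase, at 15.1, 10.2 and 25 CPM with PEG, 3.5, 1.83 and 3.8 CPM with degradable PEG and 2.89, 1.75 and 1.5 CPM with Matrigel (2.47 ± 0.36, adjusted p = 0.0145 between the gels, 3.05 ± 0.38, adjusted p = 0.000431 against Matrigel). Fmo5, a flavin monooxygenase, was at 17.3, 12.7 and 23.3 CPM with PEG, 4.52, 3.24 and 5.71 CPM with degradable PEG and 2.36, 1.79 and 1.39 CPM with Matrigel (1.98 ± 0.26, adjusted p = 0.0111). Adh1, which lies in the same alcohol dehydrogenase cluster on chromosome 3 as Adh6a, was at 7.97, 5.49 and 7.86 CPM in degradable PEG (1.98 ± 0.39, adjusted p = 0.0352). Slc30a10 (1.71 ± 0.23, adjusted p = 0.0111), Msln (1.66 ± 0.22, adjusted p = 0.0111) and H2-Q1 (1.51 ± 0.23, adjusted p = 0.0147), an MHC class I gene with close paralogs, made up the 6. Each of the 6 was lost without degradable PEG replicate 2 (adjusted p from 0.0596 to 0.179). Adh1 was lost as well without any of the others except PEG replicate 2 (adjusted p from 0.0629 to 0.132).

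The promoter of Adh6a is shown as the gene with the largest excess over degradable PEG among those also called against Matrigel (RefSeq, GRCm38.p6, chr3:138313036-138313335, plus strand). Capitals mark a TATAAA 31 bases before the start, the motif whose shares are given above.
Adh6a: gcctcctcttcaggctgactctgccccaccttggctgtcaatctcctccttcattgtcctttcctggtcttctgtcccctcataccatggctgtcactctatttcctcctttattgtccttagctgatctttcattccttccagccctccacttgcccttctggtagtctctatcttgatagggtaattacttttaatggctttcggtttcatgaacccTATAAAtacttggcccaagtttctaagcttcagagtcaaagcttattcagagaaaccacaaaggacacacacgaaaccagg
The window holds neither an ACGTG nor a TGANTCA on either strand in these letters, which says nothing about the factors that bind it.

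A few genes that rose against Matrigel were higher still in the degradable gel. Tnf, tumour necrosis factor, was at 7.56, 6.43 and 14.4 CPM with PEG, 28.9, 30.2 and 46.2 CPM with degradable PEG and 0.999, 1.81 and 1.7 CPM with Matrigel (-1.89 ± 0.29, adjusted p = 0.0152 between the gels, 2.64 ± 0.34, adjusted p = 0.000578 against Matrigel). Its feedback inhibitor Tnfaip3 was at 21.5, 23 and 30.7 CPM with PEG, 50.6, 55.1 and 81 CPM with degradable PEG and 12.1, 15.2 and 14.9 CPM with Matrigel (-1.31 ± 0.18, adjusted p = 0.0128). Acta1, a muscle actin, was at 26.6, 21.1 and 40.5 CPM with PEG, 90.8, 132 and 94.8 CPM with degradable PEG and 17.3, 17.7 and 12.6 CPM with Matrigel (-1.85 ± 0.23, adjusted p = 0.0103), and Edn1 at 118, 97 and 101 CPM in degradable PEG (-1.57 ± 0.25, adjusted p = 0.0188). Thus for these 4 genes the non-degradable gel lay between Matrigel and the degradable gel. The rule that named them required a call and no overlap in both comparisons, so the lack of overlap is not a result. Nox1 lay between them too, at 14.1, 8.54 and 13.1 CPM in degradable PEG (-1.83 ± 0.29, adjusted p = 0.0159). Thbs1, which did not pass against Matrigel, was at 1055, 779 and 959.9 CPM in degradable PEG (-2.54 ± 0.34, adjusted p = 0.0111). That call was lost without PEG replicate 1 (adjusted p = 0.0534).

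Wnt6 and Clca3b went another way, with the non-degradable gel lowest of the 3 matrices. Wnt6 was at 10.4, 12.7 and 9.77 CPM in degradable PEG (-1.57 ± 0.24, adjusted p = 0.0152), a level that overlapped with Matrigel. Clca3b was at 1302, 966 and 937 CPM in degradable PEG (-0.91 ± 0.14, adjusted p = 0.0152). Calls between the gels were lost for Tnf without degradable PEG replicate 2 or PEG replicate 1 (adjusted p from 0.0658 to 0.0837), for Wnt6 without degradable PEG replicate 2 or PEG replicate 1 (adjusted p from 0.0758 to 0.0827) and for Edn1 without degradable PEG replicate 2 or PEG replicate 1 (adjusted p from 0.0783 to 0.0837). They were also lost for Tnfaip3 without PEG replicate 1 (adjusted p = 0.0589) and for Clca3b without degradable PEG replicate 2 (adjusted p = 0.0596). Those of Acta1 and Nox1 passed with each library of the 2 gels left out. Against Matrigel, Acta1 was lost without Matrigel replicate 1 or 3 or PEG replicate 3 (adjusted p from 0.0509 to 0.0877) and Tnfaip3 without Matrigel replicate 1 or PEG replicate 3 (adjusted p from 0.0523 to 0.0527).

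**Figure D5:**
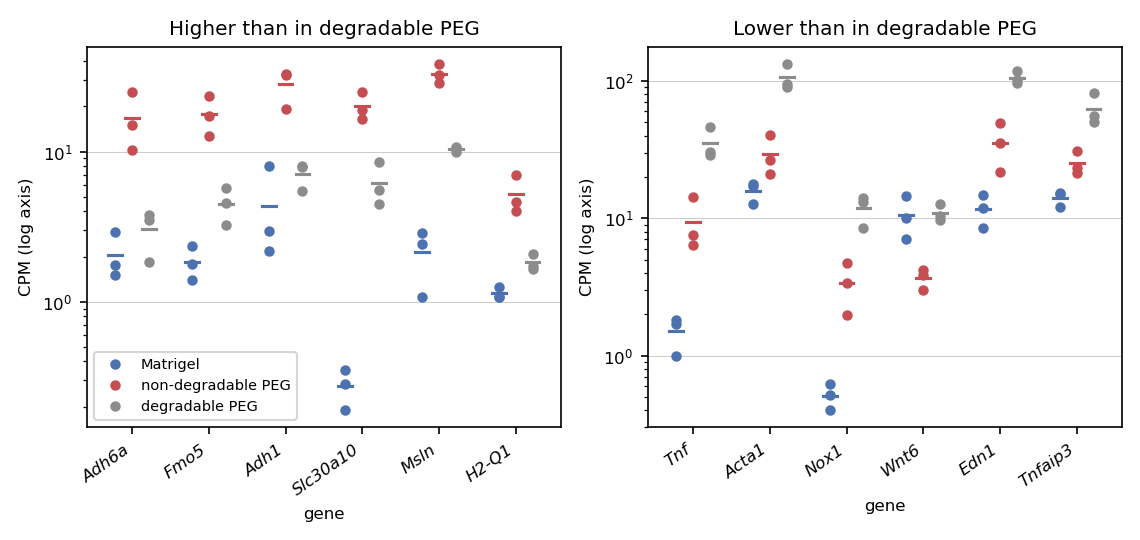
CPM on a log axis in each library of Matrigel (blue), non-degradable PEG (red) and degradable PEG (grey) for 6 genes higher and 6 lower in the non-degradable than in the degradable gel, all of which also differed from Matrigel; short lines are means. By the naming rule, red points overlap with neither other group. On the left the red points are above both other groups, and on the right they lie between blue and grey except for Wnt6, where they are lowest.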

How the data were processed

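The authors deposited raw read counts per gene for 9 libraries of polyadenylated RNA. Per the submitters' processing notes, cutadapt 1.3, STAR 2.4.2a, HTSeq 0.6.1 and the build GRCm38 were used. Per the labels' protocols, RNA came from the RNeasy Micro kit and libraries from a stranded TruSeq mRNA kit. The annotation and the strand setting of the counting are not given here, so overlapping and antisense genes are uncertain, and reads of near-identical copies may have been split or left out.

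Each table held 46517 genes and 5 tally rows, which were dropped. Symbols came from GENCODE M21, where 512 genes had no match; 21125 genes had no count in any library. Depth was 38.0 to 47.2 M assigned reads, and the biological coefficient of variation was 11.03%. The edgeR filter by matrix kept 14870 genes. One quasi-likelihood fit of all 9 libraries, with TMM scaling and 6 residual degrees of freedom, gave each contrast, with p-values adjusted over all tested genes by the Benjamini-Hochberg method and a threshold of 0.05. CPM used TMM-scaled library sizes. Tested on counts simulated for non-degradable PEG against Matrigel over 14870 genes, the fit recovered 85 of 100 2-fold and 99 of 100 4-fold changes, with 8 false calls. The simulated libraries were independent and shared no replicate effect. Far fewer genes changed in them than were called in the data, so these rates may not carry over.

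Alternatives were DESeq2, its scaling within edgeR, no filter, a filter of 10 CPM, a fit of the compared groups alone, the replicate number as a block and leaving out each library. Nothing in the labels says that equal numbers share a culture, day or animal. The deviations of same-numbered Matrigel and non-degradable PEG libraries from their group means correlated with r = 0.331, 0.176 and 0.186 for numbers 1 to 3. Unlike numbers gave -0.257 to 0.039. For the 2 gels r was 0.288, 0.02 and 0.511, beside -0.454 to 0.257 for unlike numbers. Whether equal numbers pair the libraries is therefore not settled in either comparison. The main fit took no account of the number, so its p-values are unpaired and the block is an alternative only.

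The comparison and the gene lists were chosen with earlier results of these data known. Named genes were the 12 with the largest fold change in each direction (called, no overlap between the groups, at least 5 CPM in the higher group), the 8 with the largest difference in CPM in each direction and in each list the 4 called members of smallest p. The rule added the 6 genes in each direction with the largest fold change against degradable PEG among genes called in both comparisons. These genes also had to show no overlap in either comparison and at least 5 CPM in the higher gel. Further examples were chosen after their values were seen. A few genes that the rule names are not reported here. Promoter windows of 300 bases came from RefSeq for GRCm38.p6 and were matched by symbol for 10793 of 14869 tested symbols; motifs were searched on both strands. Tools were R 4.3.3, edgeR 4.0.16, DESeq2 1.42.0, the package data.table in version 1.17.8, Python 3.11.15, pandas 2.3.3, scipy 1.17.1 and matplotlib 3.10.9.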

Additional observations from a re-analysis of the deposited data

How the results depend on the processing

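The count of 2504 genes between non-degradable PEG and Matrigel became 1505 with a filter of 10 CPM, which tests fewer genes, and 3877 with the replicate number as a block. Leaving out 1 library gave 1189 to 2151 genes. Against degradable PEG the 190 genes became 521 with no filter, 93 with a filter of 10 CPM, 509 by DESeq2 and 542 with the replicate block, and 19 to 143 with 1 library left out; the cause was not tested. Whether equal numbers pair the libraries of the 2 gels is not known. Of 249 results for single genes, none lost its call with the replicate block, 3 with DESeq2 and 1 with DESeq2's scaling. The number was 8 with no filter and 6 in a fit of the compared groups alone. With a filter of 10 CPM, 10 lost their call and 170 were unchanged, and the others were not tested. Leaving out 1 library ended 277 calls over all these genes and fits and left 1212 results unchanged. Ces2a, not called against Matrigel (log2 fold change 0.06), went to -0.11 without Matrigel replicate 2, -0.14 without Matrigel replicate 3 and -0.02 without PEG replicate 1, and passed at 0.49 without Matrigel replicate 1. Genes under about 1 CPM, such as Ptges and Bcl2a1d, rest on few reads.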
